A study of Mus musculus with 6 samples.

Results

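The genes described here are 10 transcription regulators of the B lineage, Foxo1, Bach2, Pou2af1, Pou2f1, Pou2f2, Spib, Bcl11a, Sox4, Myb and Ets1. They were read at every probe set whose gene symbol in the platform table is exactly 1 of these 10 names, and each probe set was kept separate. Of the 10 genes, 9 had at least 1 probe set, with 34 probe sets in all, out of 18193 genes and 45037 probe sets tested. No probe set was named Pou2f1 in the platform table, so that gene was not analysed here. The genes were not picked by a rule on the measured values. They were chosen with earlier results of these data known, so the choice cannot be called independent of the values.

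The EBF group was Pax5-/- pro-B cells infected with the Mig-EBF retrovirus, which carries EBF, and the control group was Pax5-/- pro-B cells infected with the MigR1 retrovirus. Both groups therefore lack Pax5, the factor that holds B cell progenitors to their lineage, so that neither group is a normal pro-B cell population. Cells of both groups grew on ST2 stromal cells with 5 ng/ml IL-7, and GFP-positive cells were sorted 2 days after infection. Each group had 3 microarrays, and an array is named here by its group and its labelled replicate number, such as EBF 1 or control 1. Whether the replicates are distinct cultures or animals is not stated, so a p-value here covers the variation among these arrays alone, possibly technical.

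Foxo1 is a forkhead factor that PI3K and Akt signalling keep out of the nucleus, and in B cell progenitors it drives the recombinase genes and the interleukin-7 receptor gene. Bach2 is a repressor that pairs with small Maf proteins and holds back plasma cell fate. Oct-1 and Oct-2, the products of Pou2f1 and Pou2f2, bind the octamer motif of immunoglobulin promoters, and OBF-1, the product of Pou2af1, is the B cell coactivator that they recruit. Spib and Ets1 encode factors of the ETS family, Bcl11a a zinc finger repressor needed for B cell development, Sox4 an HMG box factor needed for pro-B cell survival, and Myb a factor needed at the pro-B stage.

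Array medians lay between 424 and 451 intensity units, and 0 pairs of arrays held identical values. Background was gauged from 27 probe sets for Bacillus control transcripts, with array medians of 97.6 to 108 and a highest value of 410.4. Of the 34 member probe sets, 4 had a mean below that highest control value, and 28 were brighter than the median probe set. Among 12 pro-B markers, Vpreb1, a surrogate light chain gene, averaged 19549.6 ± 512 in EBF arrays and 18553 ± 430.1 in control arrays (SD, n = 3 each). Ebf1, the gene that the virus carries, read 4772, 4756 and 4082 in EBF 1 to 3, against 4204, 4276 and 4029 in control 1 to 3. The groups overlapped there, and it is not known here if the probes lie within the viral insert.

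None of the 34 member probe sets passed an adjusted p of 0.05 in the limma fit without a block, where 0.875% of all probe sets did (0.344% higher and 0.531% lower in EBF arrays). At an unadjusted p below 0.05 there were 8 member probe sets, all 8 higher in EBF arrays (23.5% of the 34), against 12.8% higher and 6.19% lower of all probe sets. With the replicate number as a block, 7 member probe sets from 5 genes were higher and 0 were lower, against 4.88% higher and 2.4% lower of all probe sets. The labels give no shared origin for arrays of the same number. The block was chosen from correlations in these same data, so every call that needs it is conditional on that pairing. These 7 were 3 probe sets of Foxo1 and 1 each of Bach2, Ets1, Bcl11a and Sox4. Probe sets of 1 gene are not independent, so these counts are not counts of genes. At the brightest probe set of each gene, 3 of the 9 measured members passed with the block. Of all genes, 4.82% were higher and 2.52% lower in that way. The groups did not overlap at 6 member probe sets higher in EBF arrays and at 1 lower, where 15.5% of all probe sets were higher and 7.67% lower without overlap. The median log2 difference was 0.06 over the 34 member probe sets and 0.02 over all probe sets. In these bulk samples, fewer cells of a type and less RNA per cell cannot be told apart.

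**Figure D1:**
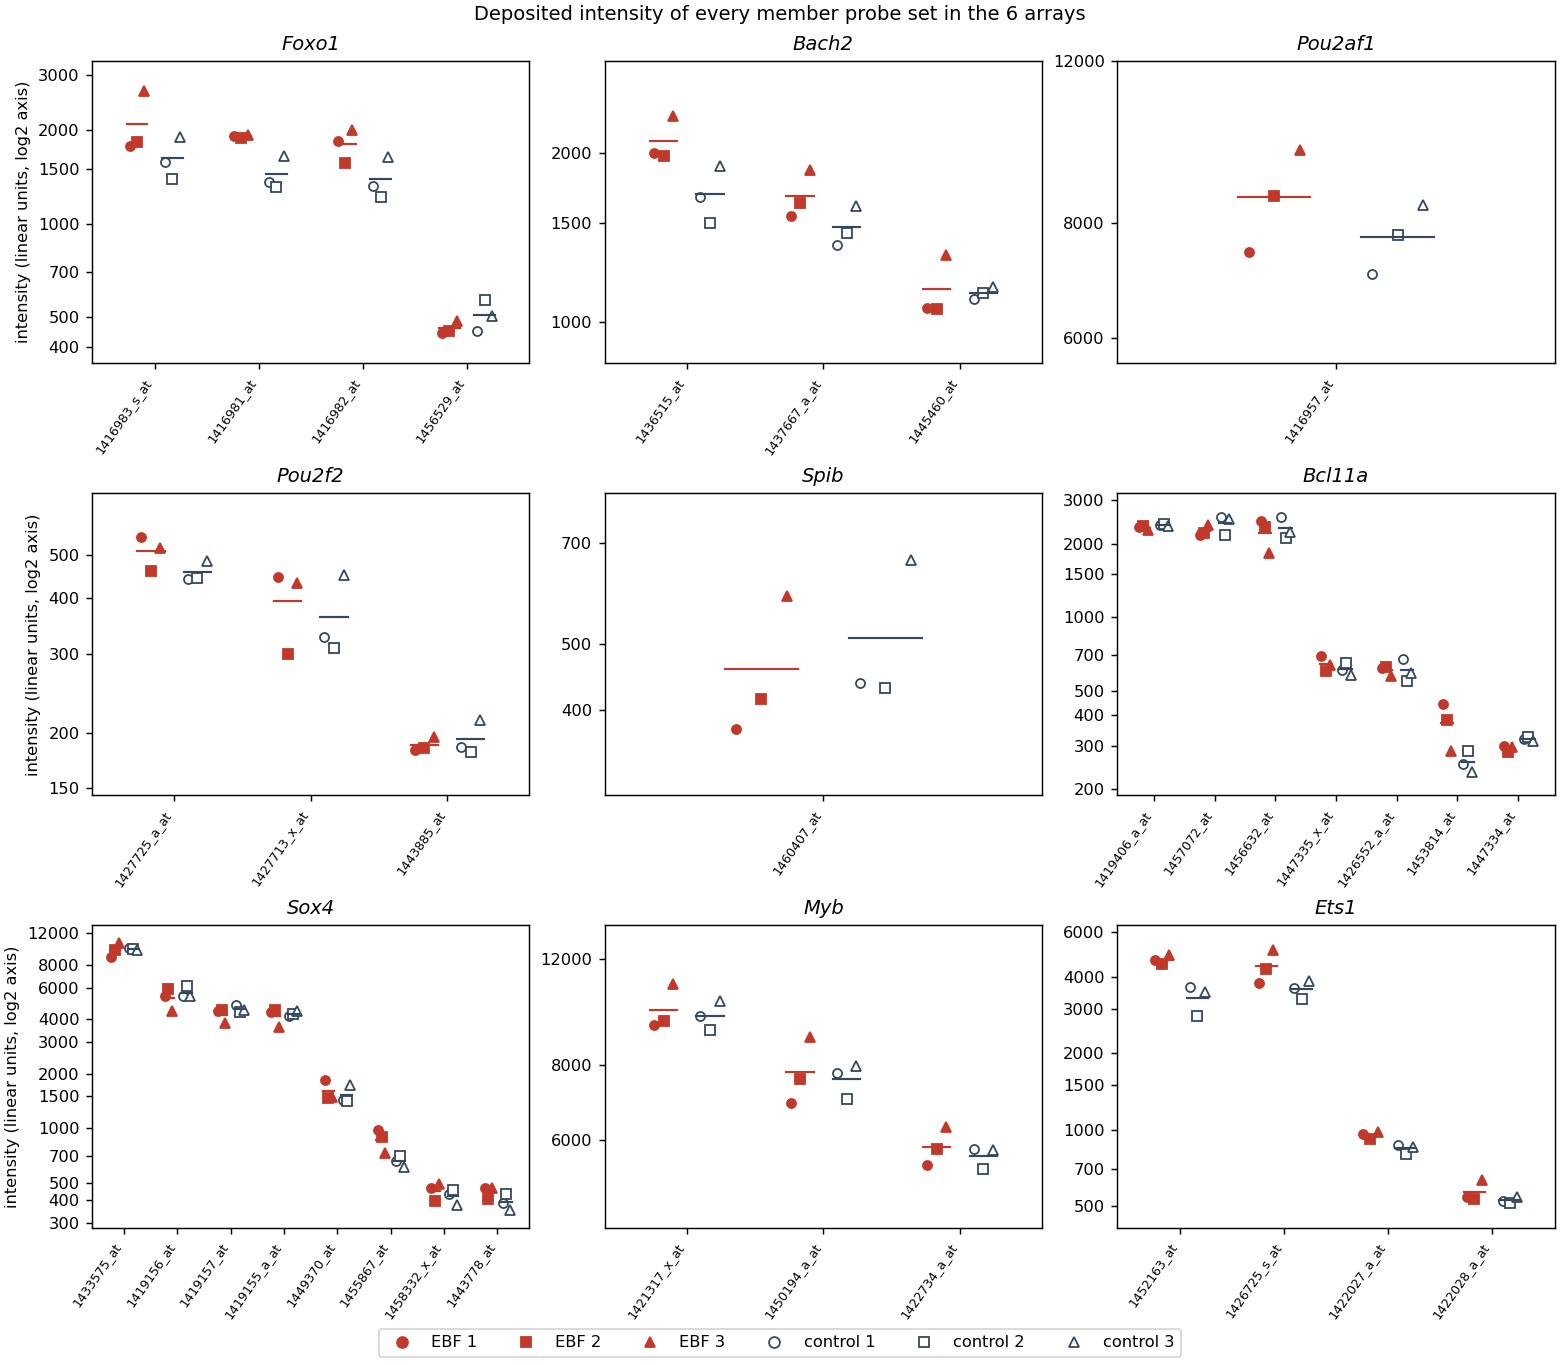
Deposited intensity (linear units on a log2-spaced axis) of each of the 34 member probe sets, with filled red symbols for EBF arrays, open dark symbols for control arrays, 1 symbol shape for each replicate number and a line at each group mean. At Foxo1 1416981_at the EBF arrays sit between 1892 and 1928, all above the control arrays, while the groups overlap at all 3 Myb probe sets.

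Foxo1 was the member with the most probe sets past the threshold in the blocked fit, 3 of 4. Probe set 1416981_at read 1916, 1892 and 1928 in EBF 1 to 3, against 1360.1, 1312 and 1645 in control 1 to 3. The lowest EBF array was above the highest control array, and the EBF arrays lay close together (1912 ± 18.2 in EBF arrays and 1439 ± 179.9 in control arrays; SD, n = 3 each). Its log2 difference was 0.41 ± 0.09 (SE; limma adjusted p = 0.0978, and 0.0235 with the block).

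Probe set 1416982_at of Foxo1 read 1845, 1573 and 1999 in EBF 1 to 3, against 1317, 1217 and 1642 in control 1 to 3. Here EBF 2 was below control 3, so the groups overlapped, although each EBF array was above the control array of its own number (log2 difference 0.37 ± 0.13, limma adjusted p = 0.19, and 0.0243 with the block). The brightest Foxo1 probe set, 1416983_s_at, read 1783, 1837 and 2670.5 in EBF 1 to 3, against 1580.0, 1389.7 and 1904 in control 1 to 3. EBF 3 stood above the rest, and the log2 difference of 0.35 ± 0.17 (limma adjusted p = 0.301, and 0.0401 with the block) was 0.16 without EBF 3. The suffix s marks a set whose probes can match more than 1 transcript. The fourth probe set, 1456529_at, was the dimmest of Foxo1, with 443 to 486 in EBF arrays and 451 to 567 in control arrays. Its mean was above that of the median probe set, and all arrays were above the highest Bacillus control. Its difference was -0.13 ± 0.09 (limma adjusted p = 0.478, and 0.381 with the block).

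The RefSeq promoter windows of Foxo1 and Bach2 are printed because these 2 genes had their brightest probe sets past the threshold in the blocked fit and a window in the RefSeq table (build GRCm38.p6; 250 bases before to 50 after the start, plus strand for both). Capitals mark the letters TCCC, any 2 bases and GGGA, the palindrome that EBF proteins are known to bind.
Foxo1 (chr3:52268087-52268386): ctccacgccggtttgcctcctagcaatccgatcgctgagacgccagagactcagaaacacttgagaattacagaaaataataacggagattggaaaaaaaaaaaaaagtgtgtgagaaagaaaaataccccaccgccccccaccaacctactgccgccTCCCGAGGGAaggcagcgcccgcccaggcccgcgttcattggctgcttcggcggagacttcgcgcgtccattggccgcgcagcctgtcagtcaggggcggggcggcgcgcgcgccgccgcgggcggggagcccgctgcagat
Bach2 (chr4:32417185-32417484): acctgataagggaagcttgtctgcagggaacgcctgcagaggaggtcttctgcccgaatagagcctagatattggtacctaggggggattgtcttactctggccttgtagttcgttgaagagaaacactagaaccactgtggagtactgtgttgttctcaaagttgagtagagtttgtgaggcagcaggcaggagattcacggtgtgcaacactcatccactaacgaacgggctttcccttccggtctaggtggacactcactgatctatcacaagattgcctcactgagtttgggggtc

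The palindrome lay at -92 to -83 from the Foxo1 start and was in 1 of the 11 windows of the 9 member genes that the table holds, against 0.904% of all 32851 windows. Those genes include Pou2f1, which had no probe set, and leave out Ets1, which had no window and was not searched. No palindrome was in the Bach2 window. The other motifs, searched on both strands, were the octamer ATGCAAAT, the forkhead motif GTAAACA and the ETS motif CCGGAAGT. The octamer was in 0 of the 11 windows and in 1.74% of all windows. The forkhead motif was in the window of Myb on chromosome 10, at 33 to 39 from the start, and in 3.65% of all windows. The ETS motif was in the window of Pou2f2 on chromosome 7, at -71 to -64, and in 3.89% of all windows. Such matches describe letters in a window, and no binding was measured here.

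Bach2 had 1 of 3 probe sets past the threshold with the block. Its brightest probe set, 1436515_at, read 2002, 1978 and 2333 in EBF 1 to 3, against 1668, 1502 and 1898 in control 1 to 3. All EBF arrays were above all control arrays, by a small margin between EBF 2 and control 3 (log2 difference 0.31 ± 0.11, limma adjusted p = 0.183, and 0.039 with the block). Probe set 1437667_a_at read 1545 to 1867 in EBF arrays and 1369.7 to 1613 in control arrays, with overlap (0.18 ± 0.10, limma adjusted p = 0.34, and 0.159 with the block). The third, 1445460_at, read 1060.2, 1056 and 1314 in EBF 1 to 3, against 1099.8, 1127 and 1155 in control 1 to 3. Of these arrays EBF 3 alone was above the controls, and the difference was 0.01 ± 0.10 (limma adjusted p = 0.955, and 0.942 with the block).

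Ets1, a factor that restrains plasma cell formation and is expressed through lymphoid development, had its brightest probe set past the threshold with the block. Probe set 1452163_at read 4654, 4512 and 4865 in EBF 1 to 3, against 3644, 2798 and 3484 in control 1 to 3. The lowest EBF array was above the highest control array (4677 ± 177 in EBF arrays and 3309 ± 449.6 in control arrays; SD, n = 3 each). The log2 difference was 0.50 ± 0.10 (limma adjusted p = 0.0788, and 0.0115 with the block), which is 1.42-fold on this scale. An intensity trend with a robust prior also took it past the threshold (limma adjusted p = 0.0392), as 1 of the 34 where 0.617% of all probe sets were called higher.

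The other 3 Ets1 probe sets also had positive differences, and none passed in either fit. Probe set 1426725_s_at read 3784, 4302 and 5115 in EBF 1 to 3, against 3611, 3277 and 3865 in control 1 to 3, with EBF 1 below control 3 (0.29 ± 0.12, limma adjusted p = 0.241, and 0.0839 with the block). Probe set 1422027_a_at read 958, 917 and 977 in EBF 1 to 3, against 872, 799 and 857 in control 1 to 3. The groups did not overlap there, with a difference of 0.17 ± 0.07 (limma adjusted p = 0.25, and 0.19 with the block). The dimmest, 1422028_a_at, had a difference of 0.10 ± 0.08, with 532 to 631 in EBF arrays and 513 to 542 in control arrays.

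**Figure D2:**
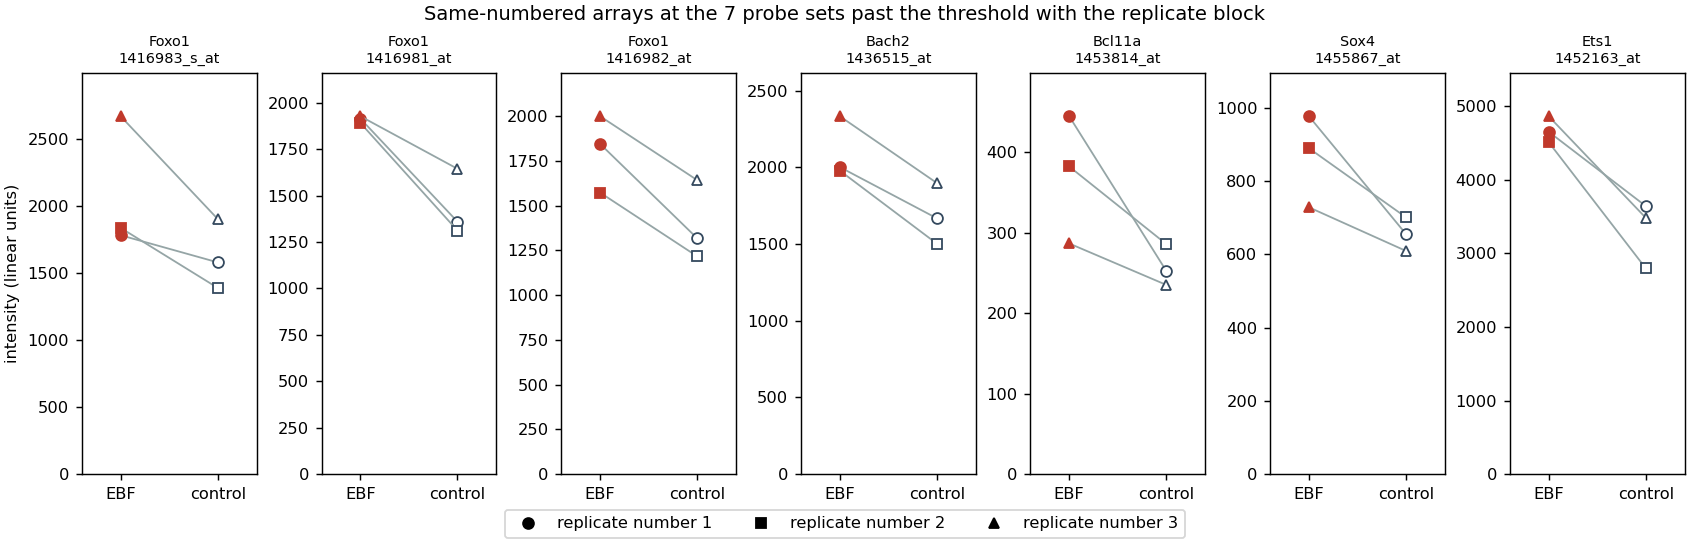
Intensity (linear units, axes from 0) at the 7 member probe sets past the threshold with the replicate block, EBF left and control right, with a line joining the arrays that carry the same replicate number. All 3 lines fall toward the control side in every panel, which the choice of panels by the blocked fit favours. The arrays numbered 3 are the highest of their group at Bach2 1436515_at and the lowest of their group at Sox4 1455867_at.

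The octamer coactivator gene Pou2af1, measured by 1 bright probe set, read 7446, 8569.9 and 9609 in EBF 1 to 3, against 7033, 7770.4 and 8362 in control 1 to 3. Each EBF array was above the control array of its own number, and the groups overlapped. The log2 difference was 0.14 ± 0.11 (limma adjusted p = 0.507, and 0.275 with the block). Pou2f2, which encodes Oct-2, was measured by 3 probe sets. Its brightest probe set, 1427725_a_at, read 549, 459.8 and 518 in EBF 1 to 3, against 441, 442 and 485 in control 1 to 3, where EBF 2 lay below control 3 (0.15 ± 0.09, limma adjusted p = 0.384, and 0.296 with the block). Probe set 1427713_x_at of Pou2f2, whose suffix marks probes that can cross-hybridise, ranged from 300.4 to 446 in EBF arrays and from 309 to 450.3 in control arrays. Probe set 1443885_at, at 182 to 196 in EBF arrays and 181 to 214 in control arrays, lay below the highest Bacillus control and had a difference of -0.03 ± 0.08.

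Spib encodes Spi-B, an ETS factor related to PU.1 that acts with it in B cell signalling genes. Its 1 probe set read 376, 416 and 586 in EBF 1 to 3, against 438, 430.4 and 663 in control 1 to 3. The arrays numbered 3 were the highest of their groups, and each EBF array was below the control array of its own number. The log2 difference was -0.14 ± 0.19 (limma adjusted p = 0.726, and 0.287 with the block).

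Bcl11a had 7 probe sets with differences from -0.11 to 0.46. Its brightest, 1419406_a_at, read 2343, 2364 and 2267 in EBF 1 to 3, against 2373, 2402 and 2356 in control 1 to 3 (log2 difference -0.03 ± 0.07, limma adjusted p = 0.821). Probe set 1453814_at read 444, 382 and 286 in EBF 1 to 3, against 252, 286 and 235 in control 1 to 3. EBF 3 was level with control 2 to within 1 unit, and the difference was 0.46 ± 0.14 (limma adjusted p = 0.164, and 0.0273 with the block). All its control values, and EBF 2 and EBF 3, lay below the highest Bacillus control, where the pseudocount weighs on the size of a difference. Probe set 1447334_at read 299, 283 and 296 in EBF 1 to 3, against 319, 325 and 314 in control 1 to 3. It was the 1 member probe set whose EBF arrays were all below the control arrays (-0.11 ± 0.07, limma adjusted p = 0.382, and 0.379 with the block). The other 4 had differences between -0.10 and 0.07, with overlap between the groups in each.

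Sox4 had 8 probe sets, of which 1 passed with the block. The brightest, 1433575_at, read 8911, 9682 and 10626 in EBF 1 to 3, against 9968, 9877 and 9756 in control 1 to 3, so that the EBF arrays spread around the tight control values (-0.02 ± 0.08, limma adjusted p = 0.904). Probe set 1455867_at read 977, 889.5 and 728 in EBF 1 to 3, against 655, 701 and 609 in control 1 to 3. All EBF arrays were above all control arrays, with a difference of 0.38 ± 0.11 (limma adjusted p = 0.154, and 0.0308 with the block). The other 6 had differences from -0.11 to 0.19, and their groups overlapped.

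Myb had 3 probe sets, all bright and none past the threshold in either fit. Its brightest probe set, 1421317_x_at, read 9305, 9451 and 10904 in EBF 1 to 3, against 9638, 9129 and 10198 in control 1 to 3. The suffix x marks probes that can cross-hybridise. The groups overlapped, with control 2 the lowest and EBF 3 the highest of the 6 arrays (log2 difference 0.03 ± 0.09, limma adjusted p = 0.87). Probe sets 1450194_a_at and 1422734_a_at had differences of 0.03 ± 0.10 and 0.05 ± 0.08, so all 3 differences were smaller than their standard errors. EBF 3 was the highest of the 6 arrays at all 3 Myb probe sets.

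**Figure D3:**
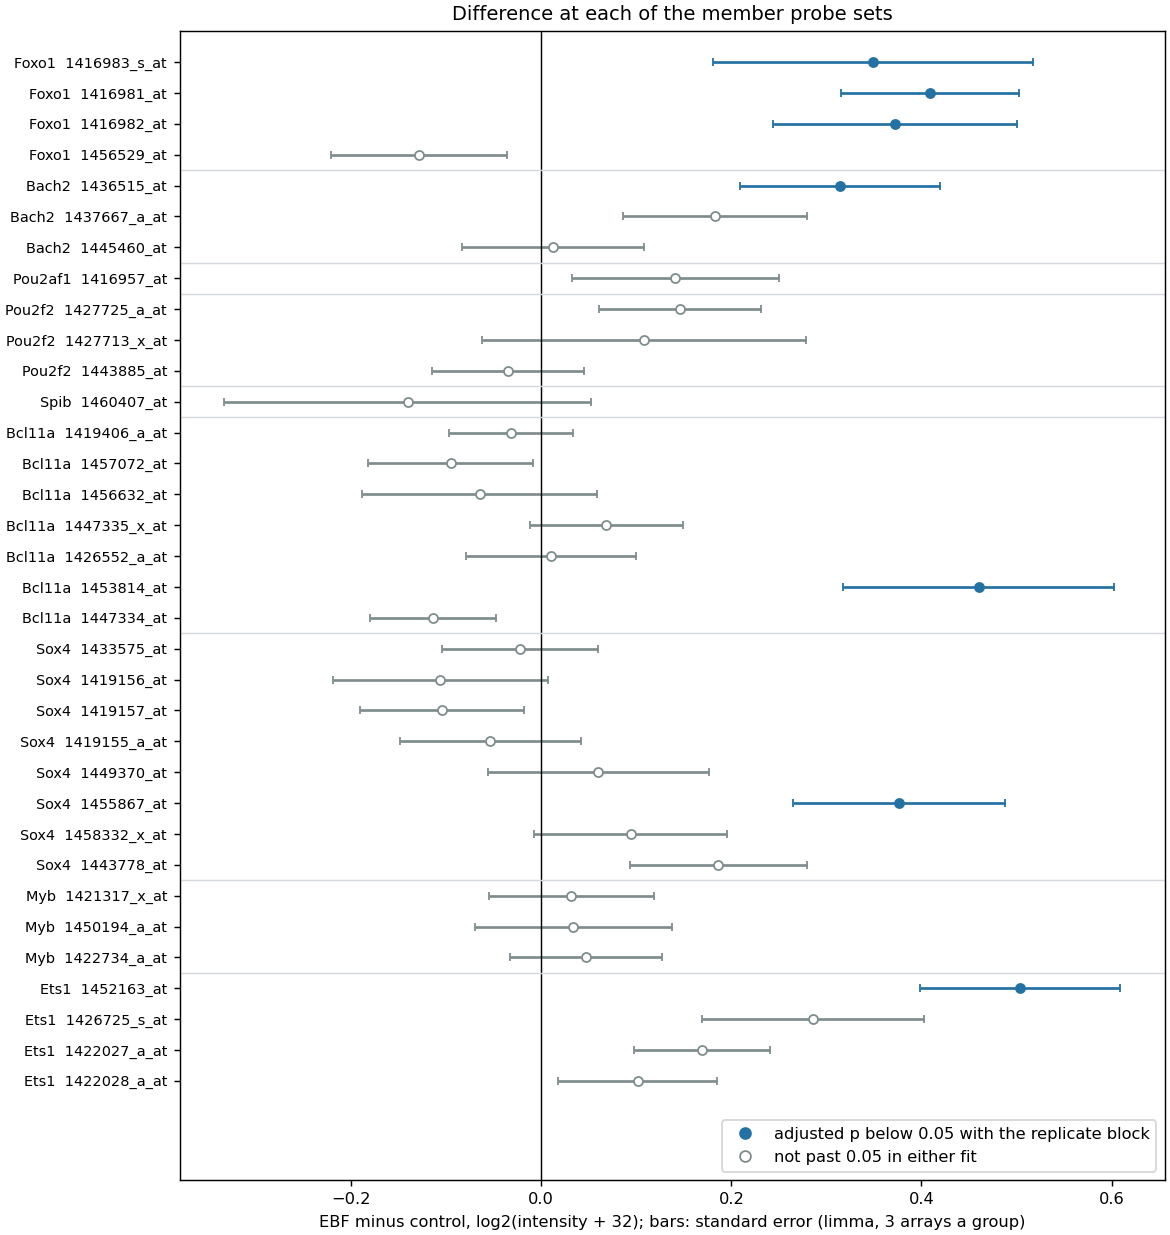
EBF minus control difference on the log2(intensity + 32) scale at each of the 34 member probe sets, grouped by gene from brightest to dimmest, with standard error bars from limma. Filled blue points passed an adjusted p of 0.05 with the replicate block: 3 of Foxo1 and 1 each of Bach2, Bcl11a, Sox4 and Ets1.

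Where probe sets of a gene gave unlike differences, the contrast between them was itself fitted, over all 16752 pairs of a probe set with the brightest of its gene. Of these pairs 0.125% passed without the block and 2.59% with it, and 0 of the 25 member pairs passed in either fit. The Bcl11a probe set 1453814_at exceeded the brightest by 0.49 ± 0.14 on the log2 scale (limma adjusted p = 0.211, and 0.0656 with the block). The dimmest Foxo1 probe set, 1456529_at, fell short of the brightest by a difference of -0.48 ± 0.18 (limma adjusted p = 0.269, and 0.0741 with the block). The Ets1 probe set 1422028_a_at fell short of its brightest by -0.40 ± 0.11 (limma adjusted p = 0.203, and 0.0847 with the block), and the Sox4 probe set 1455867_at exceeded its brightest by 0.40 ± 0.16 (limma adjusted p = 0.284, and 0.118 with the block). The data therefore do not show that probe sets of 1 gene responded differently, and they leave room for such differences.

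Some members were highest or lowest in the same arrays, counted here over probe sets that share genes and with no test. EBF 3 was the highest of the 6 arrays at 17 of the 34 member probe sets, against 16.6% of all probe sets, and control 2 was the lowest at 14 (41.2%), against 13.6% of all. EBF 3 was highest at all 3 Bach2, 3 Myb and 4 Ets1 probe sets and at 3 of the 4 Foxo1 probe sets. It was highest at 0 of the 7 Bcl11a, 0 of the 3 Pou2f2 and 0 of the 1 Spib probe sets. At the Bcl11a and Sox4 probe sets past the threshold with the block, EBF 3 was instead the lowest EBF array. Without EBF 3, 3 member probe sets passed in the fit without a block, where 6.76% of all probe sets were called higher. They were Bcl11a 1453814_at (log2 difference 0.62, limma adjusted p = 0.015), Sox4 1455867_at (0.49, 0.0193) and Ets1 1452163_at (0.48, 0.0433), while Foxo1 1416981_at had an adjusted p of 0.0519. Over all fits without 1 array, the highest limma adjusted p was 0.408 for the Bcl11a, 0.40 for the Sox4 and 0.237 for the Ets1 probe set. Without EBF 3 and control 2 together, the Bcl11a and Sox4 probe sets passed (0.03 and 0.0364), and 3.08% of all probe sets were called higher. In that fit the log2 difference was 0.06 at Foxo1 1416983_s_at, 0.34 at 1416981_at and 0.21 at 1416982_at. It was 0.16 at Bach2 1436515_at and 0.36 at Ets1 1452163_at, and none of these passed. At each of these Foxo1, Bach2 and Ets1 probe sets EBF 3 was the highest array and control 2 the lowest. Leaving out both arrays could therefore only make these differences smaller, so this fit does not gauge how stable they are.

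Genes around the members were read from 8 lists of partners, relatives and reported targets, chosen with earlier results of these data known, with each gene at its brightest probe set. All but 9 of the 137 listed genes had a probe set named here. Of these, 3 were higher and 3 lower at an adjusted p of 0.05, against 0.418% higher and 0.671% lower of all genes. With the block 7 were higher and 13 lower, against 4.82% and 2.52% of all genes. Their median log2 difference was -0.0037, and that of all genes was 0.03.

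In the Foxo1 list 26 of 31 genes were measured, of which 0 rose and 1 fell (1 higher and 3 lower with the block; median 0.04). Pik3r1, the regulatory subunit of PI3K and so upstream of Foxo1, read 4246, 3838 and 4163 in EBF 1 to 3, against 6639.6, 6061 and 5645 in control 1 to 3. The groups lay far apart, and it fell by 0.58 ± 0.08 on the log2 scale (limma adjusted p = 0.0237), a call that was lost without some arrays (highest adjusted p 0.13). Txnip, a thioredoxin inhibitor gene known as a FOXO target, averaged 3137 ± 352 in EBF arrays and 4629 ± 389 in control arrays (SD, n = 3 each), a log2 difference of -0.56 ± 0.10 (limma adjusted p = 0.0522, and 0.0111 with the block). Pik3ip1 was also lower with the block, without overlap (-0.43 ± 0.08, limma adjusted p = 0.0671, and 0.0115 with the block). The recombinase genes, direct Foxo1 targets in B cell progenitors, had differences of 0.30 ± 0.10 for Rag1 (limma adjusted p = 0.191) and 0.26 ± 0.11 for Rag2 (0.247). Il7r, another, read 5963, 6094 and 7449 in EBF 1 to 3, against 4418, 4039 and 6269 in control 1 to 3. Replicate 3 was the highest in both groups, and the groups overlapped (0.42 ± 0.16, limma adjusted p = 0.221, and 0.0224 with the block). Other genes of this list were lower in EBF arrays and also did not pass without the block. They include Cdkn1b (-0.27 ± 0.09, limma adjusted p = 0.167) and Klf2 (-0.41 ± 0.17, 0.241), both without overlap. Gadd45a had -0.29 ± 0.12 (limma adjusted p = 0.25), with overlap. Foxo3, a Foxo1 relative, differed by -0.19 ± 0.07 (limma adjusted p = 0.194).

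Of 21 measured Bach2 partners and targets 0 passed without the block, and 1 was higher and 1 lower with it (median 0.01). Nfe2, a relative of Bach2 that also pairs with small Maf proteins, read 944, 981 and 774 in EBF 1 to 3, against 1534, 1274 and 1191 in control 1 to 3, with no overlap (log2 difference -0.55 ± 0.12, limma adjusted p = 0.0894, and 0.00783 with the block). Slc7a11, a cystine transporter gene, was the higher one (0.38 ± 0.09, limma adjusted p = 0.109, and 0.0235 with the block), with all arrays but EBF 1 below the highest Bacillus control. Prdm1, the plasma cell gene that Bach2 represses, read 237 to 258 in EBF arrays and 240.3 to 256 in control arrays, below the highest Bacillus control in both.

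Among 11 measured octamer factors and reported Oct or OBF-1 targets, 1 rose and 1 fell (2 and 2 with the block; median -0.03). Ms4a1, which encodes CD20, read 544, 612 and 620.2 in EBF 1 to 3, against 260.3, 267 and 241 in control 1 to 3. All its control values lay below the highest Bacillus control and all its EBF values above it. It rose by 1.11 ± 0.08 on the log2 scale (limma adjusted p = 0.00118; highest without 1 array 0.0124). Crisp3, a secretory protein gene reported as an Oct-2 target, read 222, 188 and 190.0 in EBF 1 to 3, against 633, 549.7 and 352 in control 1 to 3. All its EBF values, and control 3, lay below the highest Bacillus control, so that the size of the difference is uncertain. It fell by 1.19 ± 0.18 on the log2 scale (limma adjusted p = 0.0284; highest without 1 array 0.147). Cd79b, a B cell receptor chain gene, had a difference of 0.40 ± 0.08 (limma adjusted p = 0.0808, and 0.0191 with the block). Cxcr5, a chemokine receptor gene, had -0.56 ± 0.45 (limma adjusted p = 0.529, and 0.0451 with the block), and Btk, a kinase gene, had 0.09 ± 0.09.

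**Figure D4:**
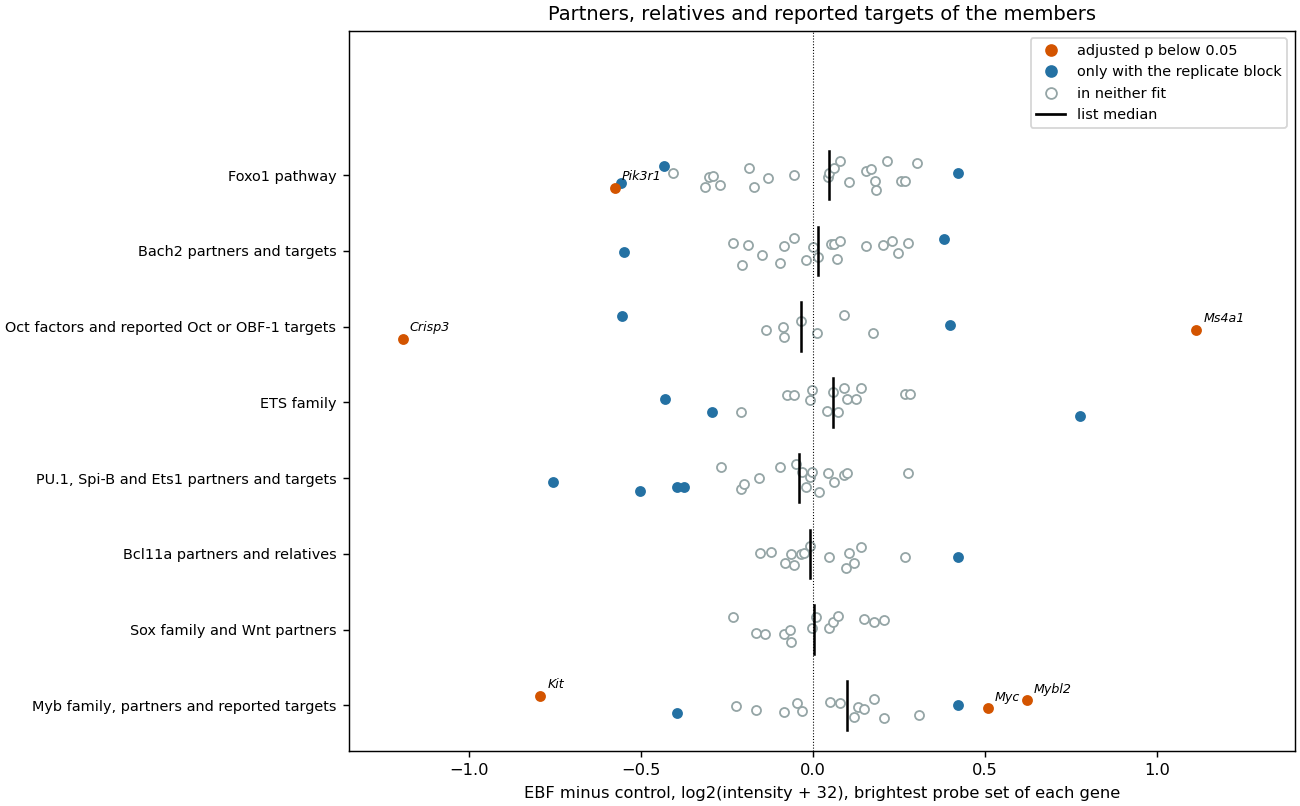
EBF minus control difference on the log2(intensity + 32) scale for the measured genes of the 8 lists, 1 point a gene, with the median of each list as a black bar. Orange points, which are named, passed an adjusted p of 0.05 without the block: Pik3r1, Crisp3, Ms4a1, Kit, Myc and Mybl2.

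Of 17 measured ETS genes 0 passed without the block, and 1 was higher and 2 lower with it (median 0.06). The repressors Elk3 (-0.43 ± 0.09, limma adjusted p = 0.071, and 0.0205 with the block) and Etv6 (-0.29 ± 0.07, limma adjusted p = 0.115, and 0.0467 with the block) had lower EBF arrays without overlap. Elk1, a serum response factor partner, read 868, 807 and 449 in EBF 1 to 3, against 423, 417 and 321 in control 1 to 3 (0.78 ± 0.22, limma adjusted p = 0.147, and 0.00453 with the block). In the list of PU.1, Spi-B and Ets1 partners and targets, 0 of 20 passed without the block and 4 were lower with it (median -0.04). They were Ptpn6, the phosphatase SHP-1 (-0.37 ± 0.08), the survival gene Bcl2 (-0.40 ± 0.09), Irf8 (-0.50 ± 0.12) and the inhibitory receptor gene Fcgr2b (-0.76 ± 0.18). Their limma adjusted p was 0.0718 to 0.106 without the block and 0.00194 to 0.0263 with it. Spi1, which encodes PU.1, had -0.21 ± 0.08 (limma adjusted p = 0.212, and 0.146 with the block).

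Of 15 Bcl11a partners and relatives 0 passed without the block, and Il7r was the 1 higher with it (median -0.01). Nr2f2, a nuclear receptor gene, had a difference of 0.27 ± 0.08 (limma adjusted p = 0.156) with all 6 arrays below the highest Bacillus control, and Bcl11b, the T lineage relative, had -0.03 ± 0.09. Of 14 measured Sox and Wnt genes 0 passed in either fit (median 0.0028), with Gsk3b, a kinase of the Wnt pathway, at -0.23 ± 0.08 (limma adjusted p = 0.195) and Tcf7l2 at 0.20 ± 0.09 (0.25).

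Of 18 measured genes in the Myb list, 2 rose and 1 fell (3 and 2 with the block; median 0.10). Mybl2, the Myb relative that acts in dividing cells, read 1271, 1252 and 1081 in EBF 1 to 3, against 781, 754 and 768 in control 1 to 3. It rose by 0.62 ± 0.08 on the log2 scale (limma adjusted p = 0.0145; highest without 1 array 0.0927). Kit, the stem cell factor receptor gene, fell to 1167 ± 119 in EBF arrays, against 2050.4 ± 254 in control arrays (SD, n = 3 each; -0.79 ± 0.11, limma adjusted p = 0.0187, highest without 1 array 0.0995). Myc rose to 6569.8 ± 29.4 in EBF arrays, against 4623 ± 397 in control arrays (SD, n = 3 each; 0.51 ± 0.08, limma adjusted p = 0.0325, highest without 1 array 0.159). Myb itself passed in neither fit.

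Markers of other cells were read beside these results, and their part in the results was not tested. The summed level of 12 pro-B markers, Ebf1 among them, was 72692 to 74940.2 in EBF arrays and 61898 to 65241 in control arrays, without overlap. Of these 12, Vpreb3 was higher (log2 difference 0.67 ± 0.08, limma adjusted p = 0.0093) and Dntt lower (-0.70 ± 0.10, limma adjusted p = 0.0226), and with the block 4 were higher and 1 lower. The sum of 7 measured NK markers was 3152 to 4228 in EBF arrays and 4829 to 6535 in control arrays, also without overlap. Among them, Gzma was higher and Klrd1 and Nkg7 lower past the threshold. Lyz2 among the myeloid markers was lower and Ms4a1 among the mature B markers higher past it, and the erythroid markers Epor and Alas2 were higher with the block alone. Myeloid markers (9 measured) summed to 4872 to 5276 in EBF arrays and 5129 to 5621 in control arrays, and T cell markers (8) summed to 4381 to 4975 in EBF arrays and 4465 to 5078 in control arrays. ST2 stromal markers (10) summed to 14215 to 20650.2 in EBF arrays and 15589.9 to 26604 in control arrays. Mature B and plasma cell markers (8) summed to 27081 to 29552 in EBF arrays and 28708 to 30138 in control arrays. Erythroid markers (4) summed to 2944 to 3203 in EBF arrays and 2633 to 2676 in control arrays, without overlap. No marker was at 0 on this scale, and the defining T cell gene Cd3d averaged 245 in EBF arrays and 236 in control arrays, below the highest Bacillus control.

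For each member, the gene most like it was taken as the 1 with the highest Pearson r over the 6 arrays, among brighter than median probe sets of other genes. These correlations mix the group difference with array effects that all genes share. Over so few arrays such values are common: 11 (Pou2f2) to 223 (Ets1) probe sets reached an r of 0.95 with a member. For Foxo1 at its brightest probe set it was Gpsm2 (r = 0.995), for Bach2 Slc1a4 (r = 0.993) and for Ets1 Mthfd1 (r = 0.996). For Pou2af1 it was Ero1b (r = 0.994), for Pou2f2 Itfg2 (r = 0.982) and for Spib Marcks (r = 0.993). For Bcl11a it was Acap1 (r = 0.995), for Sox4 Lbr (r = 0.998) and for Myb D030056L22Rik (r = 0.993). Both Myb and D030056L22Rik were read there at probe sets with the suffix x. None of these 9 genes passed the threshold itself, with the lowest adjusted p at 0.172 for Slc1a4.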

How the data were processed

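The authors deposited 1 processed intensity per probe set and array on a linear scale, with the software, background step and normalization not given in the sources used here. Per the labels' protocols, 6 microg of total RNA went into each biotinylated cRNA. The design text names a rat array, whereas the probe set names match the mouse platform table used here. The 64 Affymetrix controls were left out. Of 45037 probe sets, 34945 had 1 gene symbol, 932 several and 9160 none.

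Values were analysed as deposited, as log2(intensity + 32), so fold changes understate those of dim genes. EBF minus control was fitted over all probe sets by a linear model with moderated two-sided tests (limma 3.58.1, R 4.3.3), group being its single term, with Benjamini-Hochberg adjustment and a threshold of 0.05; errors of differences are limma standard errors. No filter on low values was used. The number of arrays limits the precision.

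After subtraction of group means, arrays sharing a number correlated at 0.318, 0.255 and 0.503 over 22518 brighter probe sets, all above 0.1, which met the criterion for pairing. The labels give a number but no shared origin, so the data are the source of this pairing. Other ways of matching EBF arrays with control arrays were not compared. The reported calls come from the unpaired model. The fit with the number as a block is given beside the calls it changes, though without values for some marker genes.

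Members and lists were chosen with earlier results of these data known. Named list genes were those past the threshold (at most 4 a list), filled up to 2 by smallest p, and genes that explain a member's role. Pik3ip1, Cdkn1b, Klf2, Gadd45a, Cd79b, Cxcr5, Elk1, Irf8 and Fcgr2b were chosen after their values were seen. The contrast between probe sets of a gene was added after seeing the data. The scripts were tested on simulated data.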

Additional observations from a re-analysis of the deposited data

How the results depend on the processing

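Over 15 alternatives, the 34 member probe sets gave 484 differences, of which 438 kept direction and side of the threshold, 13 newly passed it and 33 changed sign, with 0 of these 33 past the threshold. The count of member probe sets past the threshold was 0 as reported and 7 with the replicate block, 1 with an intensity trend and robust prior, 2 without EBF 3 and control 2 together, and 0 to 3 when 1 array was left out (3 without EBF 3). Over all probe sets the count was 394, and it became 3280 with the block, 611 with the trend, 233 at the brightest probe sets only (fewer tested), 1887 without both arrays, and 79 (without EBF 2) to 4287 (without EBF 3) without 1 array. Over the lists it was 6, and it became 20 with the block, 12 with the trend, 10 with the higher pseudocount, 11 without both arrays and 1 to 20 without 1 array. The cause of these shifts was not tested. Sign changes were in differences of 0.14 or less in size. With median scaling they were Bach2 1445460_at (-0.016) and Bcl11a 1426552_a_at (-0.018). With quantile normalization they were the same 2 (-0.00095 and -0.014) and Myb 1450194_a_at (-0.0012). Without both arrays they were Bach2 1445460_at (-0.089), Pou2f2 1427713_x_at (-0.062), Bcl11a 1456632_at (0.0018) and 1426552_a_at (-0.016), Sox4 1419156_at (0.068) and 1419155_a_at (0.047), and Myb 1421317_x_at (-0.080), 1450194_a_at (-0.12) and 1422734_a_at (-0.043). When 1 array was left out, the ranges that crossed 0 were Bach2 1445460_at -0.089 to 0.065, Pou2f2 1443885_at -0.074 to 0.029, Spib -0.32 to 0.052, Bcl11a 1456632_at -0.15 to 0.063 and 1426552_a_at -0.053 to 0.089, Sox4 1433575_at -0.087 to 0.040, 1419156_at -0.20 to 0.0078, 1419155_a_at -0.11 to 0.046 and 1449370_at -0.044 to 0.16, and Myb 1421317_x_at -0.040 to 0.074, 1450194_a_at -0.065 to 0.11 and 1422734_a_at -0.0069 to 0.097. Signal near the Bacillus controls limits the dim probe sets of Pou2f2 and Bcl11a and the list genes Ms4a1, Crisp3, Slc7a11, Nr2f2 and Prdm1.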
